A study of Mus musculus with 15 samples.

Results

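The TNF superfamily ligands Tnf, Tnfsf8, Tnfsf9, Tnfsf10, Tnfsf11, Tnfsf13b, Tnfsf14, Tnfsf15 and Tnfsf18 were followed through bleomycin injury of the mouse lung together with Tnfrsf18, the receptor of Tnfsf18. The 10 genes are rows of a table of 33340 genes. The set was chosen by gene family and by a measured value, since Tnfsf18 stood among the largest rises over day 0 in these libraries, so the comparisons of the 10 genes with day 0 are given as a description, with no p and nothing read from them. All 10 had enough counts to enter the fit of 17457 genes, and Tnfsf18 did so only through the days on which it was high.

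Whole lungs came from male C57BL/6 mice of 10 to 12 weeks, which received a single dose of 5 U/kg bleomycin, an agent that breaks DNA and leads to lung fibrosis, through the trachea. Polyadenylated RNA was sequenced from 4 libraries labelled as day 0 controls, 4 taken at day 7, 4 at day 14 and 3 at day 21. A treatment label naming the drug is attached to day 0 replicate 4, although its title makes it a control, and it was used as a control. The series' design text gives 3 replicates for each time point, fewer than the titles do at days 0, 7 and 14, and all titled samples were used, so that every n, SD and p rests on the titles. No label says what the day 0 mice received in place of the drug, and a sham instillation on the later days was not analysed here. Nothing in the labels ties a library to an animal beyond its replicate number, so p-values measure the spread between these libraries.

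TNF superfamily ligands are trimeric proteins, mostly anchored in the membrane, that cluster receptors of the TNF receptor superfamily on a neighbouring cell. Receptors recruit TRAF adaptors, which lead to NF-kB and kinase signalling, and those with a death domain can also start apoptosis. Tnf drives inflammation, and Tnfsf10 (TRAIL) can trigger cell death. Tnfsf8 (CD30 ligand), Tnfsf9 (4-1BB ligand), Tnfsf14 (LIGHT), Tnfsf15 (TL1A) and Tnfsf18 (GITR ligand) co-stimulate lymphocytes, Tnfsf13b (BAFF) keeps B cells alive, and Tnfsf11 (RANKL) drives the formation of osteoclasts. Tnfrsf18 (GITR) is best known on regulatory and activated T cells.

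The stretches upstream of 4 of the genes are shown because Tnfsf18 is the gene the set was built on, Tnfsf8 lay above day 0 in every later library, Tnfsf13b was called between later days and Tnf is the founding ligand. RefSeq windows on GRCm38.p6 matched 9 of the 10 genes, and Tnfsf9 is named only. Bases inside an exon annotated by GENCODE M21 were left out. Capitals mark matches on either strand to an AP-1 site (TGANTCA), the core of an NFAT site (TGGAAA) or a TATA box (TATAAA), and no 2 matches overlapped. A kappa B consensus was searched as well.
Tnfsf18, chr1:161494407-161494654, plus strand: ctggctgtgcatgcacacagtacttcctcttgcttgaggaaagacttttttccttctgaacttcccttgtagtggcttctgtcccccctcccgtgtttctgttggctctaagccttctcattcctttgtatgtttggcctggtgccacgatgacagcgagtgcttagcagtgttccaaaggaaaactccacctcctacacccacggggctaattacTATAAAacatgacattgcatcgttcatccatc
Tnf, chr17:35202008-35202257, minus strand: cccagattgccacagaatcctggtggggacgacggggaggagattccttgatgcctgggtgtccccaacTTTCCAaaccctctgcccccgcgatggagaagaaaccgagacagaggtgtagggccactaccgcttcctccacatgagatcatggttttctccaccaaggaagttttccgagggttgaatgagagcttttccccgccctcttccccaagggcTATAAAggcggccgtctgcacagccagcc
Tnfsf8, chr4:63861348-63861534, minus strand: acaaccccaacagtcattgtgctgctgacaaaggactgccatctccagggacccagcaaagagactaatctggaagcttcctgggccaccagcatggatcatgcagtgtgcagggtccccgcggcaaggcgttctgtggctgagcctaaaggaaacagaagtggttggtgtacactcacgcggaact
Tnfsf13b, chr8:10006217-10006466, plus strand: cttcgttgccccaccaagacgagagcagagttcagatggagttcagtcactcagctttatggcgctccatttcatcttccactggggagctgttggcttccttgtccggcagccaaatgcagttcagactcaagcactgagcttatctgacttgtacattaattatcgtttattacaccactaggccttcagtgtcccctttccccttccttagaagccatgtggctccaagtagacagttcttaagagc

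Within the 250 bases before the RefSeq start, a TATA box began 34 bases upstream in Tnfsf18 and 29 in Tnf. In Tnfsf11 the match lay 32 bases upstream and was on the opposite strand (TTTATA). Of 32851 windows of that length, 12.4% held a match on either strand. The NFAT core was found in Tnf, Tnfsf10 and Tnfsf14, against 18.6% of all windows. AP-1 letters were found in Tnfsf14 and, from a second annotated start, in Tnfsf13b, against 6.75%. No window of the 9 genes held the kappa B consensus, which 5.93% of all windows did. A match is a string of letters and not evidence of binding.

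Several of these genes lie beside relatives. Tnfsf18 (ENSMUSG00000066755, chr1:161494655-161505290 on mm10, plus strand) lies between the ligand genes Tnfsf4, 76.2 kb to its left, and Fasl, 275 kb to its right. Tnf (chr17:35199381-35202007, minus strand) is flanked by Ltb at 3.06 kb and Lta at 1.16 kb. Tnfsf15 and Tnfsf8 are 86.2 kb apart on chromosome 4, Tnfsf9 and Tnfsf14 flank Cd70 on chromosome 17, and Tnfrsf18 starts 9.55 kb after Tnfrsf4 on chromosome 4. The exons of Tnfsf9 share 14.9% of their bases with Gm11110 and those of Tnfrsf18 share 27.2% with Gm16008, both on the opposite strand. The strand setting of the counting is not stated, so reads in those stretches cannot be assigned with certainty.

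The libraries held 15652008 to 18020661 counts each, spread over 22100 to 23970 detected genes. Mitochondrial genes took 2.03% to 4.22% of the counts, and this share varied within days. It was under 2.5% in 2 libraries of day 0, all of day 7 and 1 of day 14, and over 3.5% in 2 of day 0, 3 of day 14 and 1 of day 21. Alveolar type 1 and type 2 markers were present on every day, as the labelled tissue requires. Because the RNA is from whole lung, fewer cells of a type and less RNA per cell cannot be told apart in any value below.

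Tnfsf18, the GITR ligand, was close to absent at day 0 and present in every later library. The 4 day 0 libraries held 1, 2, 0 and 0 reads of it. Day 7 libraries held 53, 171, 50 and 15 reads. Those of day 14 held 565, 981, 168 and 172, and those of day 21 held 118, 504 and 296. Levels were scaled to CPM, the reads of a gene per mega-read of its library size after TMM scaling. Tnfsf18 stood at 0.0464 ± 0.0583 CPM (SD, n = 4) at day 0, 4.05 ± 3.78 (n = 4) at day 7, 29.0 ± 25.0 (n = 4) at day 14 and 17.8 ± 10.7 (n = 3) at day 21. No later library overlapped day 0. The lowest day 14 library (9.61 CPM) lay just above the highest of day 7 (9.54 CPM), and the day 21 libraries, at 7.30, 28.7 and 17.4 CPM, overlapped both.

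With only 3 reads at day 0 the size of the difference is known poorly. The ratio of pooled counts, corrected for library size, was 89.6 at day 7 with a 95% counting interval of 30.4 to 437, 619 at day 14 (212 to 3010) and 396 at day 21 (135 to 1920). These exact intervals cover counting error only, not the spread between libraries. Without day 0 replicate 2, which held 2 of the 3 reads, the ratios were 201, 1390 and 889. Within libraries of lower mitochondrial share the day 7 ratio was 43.6. Within those of higher share, day 14 held 1321 reads against 0 at day 0. That ratio has no finite value, and its counting interval began at 242. Without day 7 replicate 2 it was 49.0, and without day 14 replicate 2 the day 14 ratio was 389. By fitted fold change, which for such low controls depends on the added prior count, Tnfsf18 stood at rank 11 of 17457 genes at day 7, rank 1 at day 14 and rank 3 at day 21. These ranks are the values on which it was picked.

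**Figure D1:**
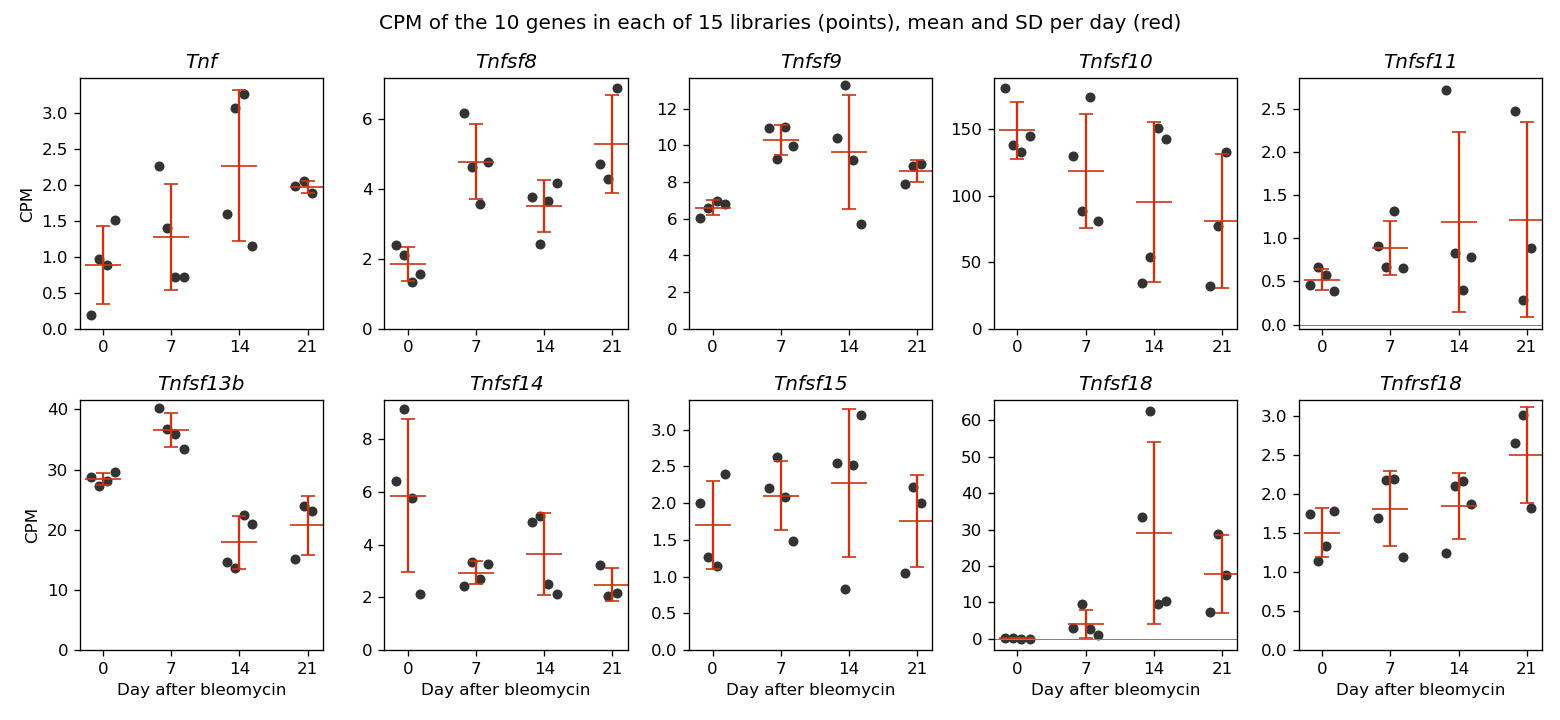
CPM on the vertical axis against day after bleomycin for the 10 genes, with 1 point per library and the mean and SD per day in red. Tnfsf18 lies at or near 0 in all 4 day 0 libraries and reaches 62.6 CPM at day 14, while Tnfsf13b is highest at day 7 and lowest at day 14.

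Libraries of a single day differed widely in Tnfsf18. Its coefficient of variation was 93.5% at day 7, 86.1% at day 14 and 60.2% at day 21, against 3.42% to 24.4% for Tnfsf13b over the 4 days. Day 14 replicate 2 had 62.6 CPM and replicate 1 had 33.4 CPM, whereas replicates 3 and 4 had 9.61 and 10.4 CPM. Per kilobase of exon, Tnfsf18 went from the lowest level of the 10 genes at day 0 (0.0225 ± 0.0282 CPM per kb) to the second highest at day 14 (14.0 ± 12.1), next to Tnfsf10 (18.1 ± 11.4), from which it did not differ beyond its spread.

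Among the genes tested whose log2 CPM was most like that of Tnfsf18 over the 15 libraries were Tmem37 (Pearson r 0.972), Rasl10b (0.967), S100a14 (0.966) and Tmem167 (0.964). The points share day and library, so these values are a description. Tmem37 went from 26.8 ± 2.61 CPM at day 0 to 65.2 ± 15.4 at day 7, 119.7 ± 55.7 at day 14 and 109 ± 24.3 at day 21. S100a14, a calcium-binding protein of epithelia, went from 5.79 ± 0.704 to 28.2 ± 8.78, 56.1 ± 38.0 and 45.1 ± 8.16 CPM over the same days. The listed markers of alveolar type 1 cells summed to 2610 to 3860 CPM at day 0, 3010 to 3510 at day 7, 2770 to 4660 at day 14 and 1490 to 3480 at day 21, and none was at 0. Their part in the Tnfsf18 values was not tested.

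Tnfrsf18, the receptor of Tnfsf18, had low and overlapping levels. It measured 1.75, 1.15, 1.33 and 1.79 CPM at day 0, 1.70, 2.18, 2.20 and 1.19 CPM at day 7, 1.24, 2.11, 2.17 and 1.87 CPM at day 14, and 2.66, 3.02 and 1.82 CPM at day 21. The day 21 libraries lay above all those of day 0, the lowest by a small margin, and the groups of day 7 and day 14 overlapped day 0. The log2 difference from day 0 was 0.27 ± 0.29 (standard error) at day 7, 0.30 ± 0.29 at day 14 and 0.73 ± 0.31 at day 21. Between the later days none of its differences passed the test, with an edgeR adjusted p of 0.97 for day 14 against day 7, 0.323 for day 21 against day 7 and 0.664 for day 21 against day 14. Regulatory T cell markers (Foxp3, Il2ra, Ctla4 and Ikzf2), none at 0, summed to 12 to 14.3 CPM at day 0, 13.7 to 28.5 at day 7, 11.8 to 16.8 at day 14 and 9.17 to 18.9 at day 21. Their part in the Tnfrsf18 values was not tested.

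Calls below need a Benjamini-Hochberg adjusted p under 0.05 over all 17457 genes and a fold change over 1.5. As a description only, members past both thresholds against day 0 numbered 3 of 10 at day 7, all higher (Tnfsf8, Tnfsf9 and Tnfsf18), where 8.78% of all genes were called higher and 7.36% lower. At day 14 there were 2 higher (Tnfsf8 and Tnfsf18) and 1 lower (Tnfsf13b), where the shares of all genes were 12% and 11.2%. At day 21 there were 2 higher (Tnfsf8 and Tnfsf18) and 1 lower (Tnfsf14), where the shares were 12.4% and 10.1%. The choice of the set used these contrasts, so nothing is read from the counts, and the 3 comparisons share the same day 0 libraries. The median log2 difference of the 10 genes was 0.43, 0.48 and 0.56 at days 7, 14 and 21, beside 0.0096, 0.016 and 0.024 over all genes tested.

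The count at day 14 depended on single libraries. Leaving out day 0 replicate 4 gave 5, as did leaving out day 14 replicate 4, and it was 1 within the 2 day 0 and 3 day 14 libraries of higher mitochondrial share.

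Tnfsf8, the CD30 ligand, was higher than day 0 in every later library. Its 4 day 0 values were 2.40, 2.12, 1.33 and 1.56 CPM. They were followed by 6.17, 4.63, 3.57 and 4.76 CPM at day 7, 3.78, 2.42, 3.66 and 4.17 CPM at day 14, and 4.70, 4.27 and 6.88 CPM at day 21. The log2 difference was 1.37 ± 0.27 at day 7, 0.92 ± 0.27 at day 14 and 1.51 ± 0.28 at day 21. The lowest library of day 14 (2.42 CPM) came close to the highest control (2.40 CPM). All day 21 libraries lay above all day 14 libraries, with a log2 difference of 0.59 ± 0.27 that did not pass the test (edgeR adjusted p = 0.505).

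Tnfsf9, the 4-1BB ligand, measured 6.02, 6.59, 6.98 and 6.81 CPM at day 0 and 10.9, 9.27, 10.98 and 9.99 CPM at day 7, with no overlap. At day 14 the libraries spread from 5.74 to 13.3 CPM around a mean of 9.65 ± 3.12 (n = 4), so that day overlapped day 0. At day 21 they held 7.92, 8.89 and 9 CPM, again above all controls. The log2 difference from day 0 was 0.64 ± 0.20, 0.55 ± 0.20 and 0.38 ± 0.21 in turn. Between the later days the edgeR adjusted p was 0.433 or higher.

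Tnf itself was scarce, at 3, 16, 14 and 27 reads in the day 0 libraries. It stood at 0.889 ± 0.539 CPM (n = 4) at day 0, 1.27 ± 0.736 (n = 4) at day 7, 2.27 ± 1.05 (n = 4) at day 14 and 1.97 ± 0.0847 (n = 3) at day 21. The 4 day 14 values, 1.60, 3.06, 3.26 and 1.15 CPM, overlapped day 0, whose highest library had 1.51 CPM. The 3 day 21 values (1.98, 2.05 and 1.88 CPM) lay above every control. The log2 difference was 0.50 ± 0.52 at day 7, 1.33 ± 0.51 at day 14 and 1.13 ± 0.54 at day 21.

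Tnfsf13b, which encodes the B cell survival factor BAFF, gave the called difference between later days, a comparison that the choice of genes did not use. It was 28.7, 27.3, 28.1 and 29.6 CPM at day 0 and 40.3, 36.7, 36.0 and 33.5 CPM at day 7. At day 14 it was 14.7, 13.7, 22.4 and 20.9 CPM, and at day 21 it was 15.1, 24.0 and 23.1 CPM. Every day 7 library was above every control, and every library of days 14 and 21 was below every control. From day 7 to day 14 it fell by 1.03 ± 0.17 on the log2 scale (edgeR adjusted p = 0.00486), and from day 7 to day 21 it fell by 0.82 ± 0.18 (edgeR adjusted p = 0.0111). Day 21 did not differ from day 14 by the test (log2 difference 0.21 ± 0.18, edgeR adjusted p = 0.728).

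Tnfsf13b was the 1 call among the 9 members tested between later days. Tnfsf18 was left out of these tests because it was chosen for its rise, and its log2 difference was 2.83 ± 0.68 for day 14 against day 7, 2.13 ± 0.70 for day 21 against day 7 and -0.70 ± 0.68 for day 21 against day 14. Over the alternatives these Tnfsf18 values ran from 2.13 to 3.7, from 1.58 to 3 and from -1.25 to -0.0045 in turn. For day 14 against day 7, 2.77% of all genes were called higher and 3.23% lower, and for day 21 against day 7 the shares were 5.2% and 4.34%. Between day 21 and day 14 no member and 0% of all genes were called by edgeR, which gave 1714 genes an unadjusted p under 0.05. DESeq2 called 106 genes there and none of the members. Over the 14 alternatives for day 14 against day 7 the Tnfsf13b difference ran from -1.16 to -0.92, with an adjusted p of at most 0.0335, and over the 13 for day 21 against day 7 it ran from -0.96 to -0.66, with at most 0.0381.

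Macrophage markers (Adgre1, Cd68, Mertk, Fcgr1 and Csf1r) went from a sum of 281 to 328 CPM at day 0 to 394 to 481 at day 7, 481 to 812 at day 14 and 440 to 663 at day 21, which overlapped day 7, with 3 of 5 called higher than day 0 at days 7 and 21 and 4 of 5 at day 14. None of these markers was at 0. Their part in the Tnfsf13b values was not tested.

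Tnfsf10 (TRAIL) had the highest mean level per length of the 10 genes on every day, though Tnfsf18 and Tnfsf9 were above it in day 14 replicates 1 and 2. It stood at 28.3 ± 4.10 CPM per kb at day 0. Its libraries held 181, 138, 133 and 145 CPM at day 0 and 130, 88.9, 175 and 81.2 CPM at day 7. At day 14 they held 34.3, 53.8, 151 and 143 CPM, and at day 21 they held 32.3, 77.1 and 133 CPM. Low libraries were therefore mixed with libraries at the control level on each later day, and the log2 difference from day 0 was -0.33 ± 0.44, -0.65 ± 0.44 and -0.88 ± 0.49. Day 14 replicates 1 and 2, low in Tnfsf10, also had the lower sums of NK cell markers on that day (1.83 and 2.74 CPM, against 6.41 and 6.22), as well as of T cell (19.7 and 17.3, against 30.3 and 25.9), dendritic cell (32.8 and 43.6, against 63 and 59.6) and endothelial markers (1150 and 1380, against 1970 and 1640). At day 21 replicate 1 was lowest in Tnfsf10, and also in dendritic cell (32.3 CPM, against 56.9 and 58.7) and endothelial sums (1470 CPM, against 1810 and 1680), while replicate 2 had the lowest NK and T cell sums. At day 7, replicates 2 and 4 were low in Tnfsf10 and had the lower NK, T and dendritic cell sums. For dendritic cells this was by 72.9 CPM in replicate 4 against 73 in replicate 1. Endothelial sums did not follow, at 1910 CPM in replicate 4 and 1620 CPM in replicate 1. Macrophage sums at day 14 were higher in replicates 1 and 2 (812 and 547 CPM) than in replicates 3 and 4 (481 and 531 CPM). The part of any of these cells in the Tnfsf10 values was not tested. Between the later days no difference passed the test (edgeR adjusted p of 0.464 to 0.897).

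Tnfsf14 (LIGHT) had a wide control group that overlapped every later day. Its day 0 values were 6.41, 9.13, 5.78 and 2.12 CPM, and the last of these, replicate 4, lay among the later libraries. Later values were 2.44 to 3.35 CPM at day 7, 2.11 to 5.10 CPM at day 14 and 2.05 to 3.22 CPM at day 21. The log2 difference from day 0 was -0.99 ± 0.38 at day 7, -0.68 ± 0.38 at day 14 and -1.24 ± 0.42 at day 21. Neutrophil markers (S100a8, S100a9, Cxcr2 and Retnlg), none at 0, summed to 315 to 611 CPM at day 0 and to 56.4 to 212, 74.2 to 369 and 44.6 to 119 CPM on the later days. Their part in the Tnfsf14 values was not tested.

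Tnfsf11 (RANKL) stood out in 2 libraries. It was 2.72 CPM in day 14 replicate 1 and 2.47 CPM in day 21 replicate 1, while the other libraries lay between 0.285 and 1.32 CPM. Without these libraries the log2 difference from day 0 went from 1.18 ± 0.63 to 0.34 at day 14 and from 1.21 ± 0.67 to 0.13 at day 21. Both libraries also had the highest sums of fibroblast markers on their day, 10000 and 7020 CPM. The remaining sums were 2440 to 3420 CPM at day 14 and 3380 and 6100 CPM at day 21. The gene most like Tnfsf11 over the 15 libraries was Actg2, a smooth muscle actin (Pearson r 0.874). The part of other cells in the Tnfsf11 values was not tested.

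Tnfsf15 (TL1A) stayed within overlapping levels. It was 1.71 ± 0.599 CPM (n = 4) at day 0, 2.101 ± 0.470 (n = 4) at day 7, 2.27 ± 1.01 (n = 4) at day 14 and 1.76 ± 0.622 (n = 3) at day 21, and the 4 days overlapped. Its log2 difference from day 0 was 0.30 ± 0.39, 0.41 ± 0.39 and 0.04 ± 0.42. At day 0, Tnf, Tnfsf15 and Tnfsf8 were neighbours in level per length (0.543 ± 0.329, 0.509 ± 0.179 and 0.486 ± 0.129 CPM per kb) and did not differ beyond their spread.

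**Figure D2:**
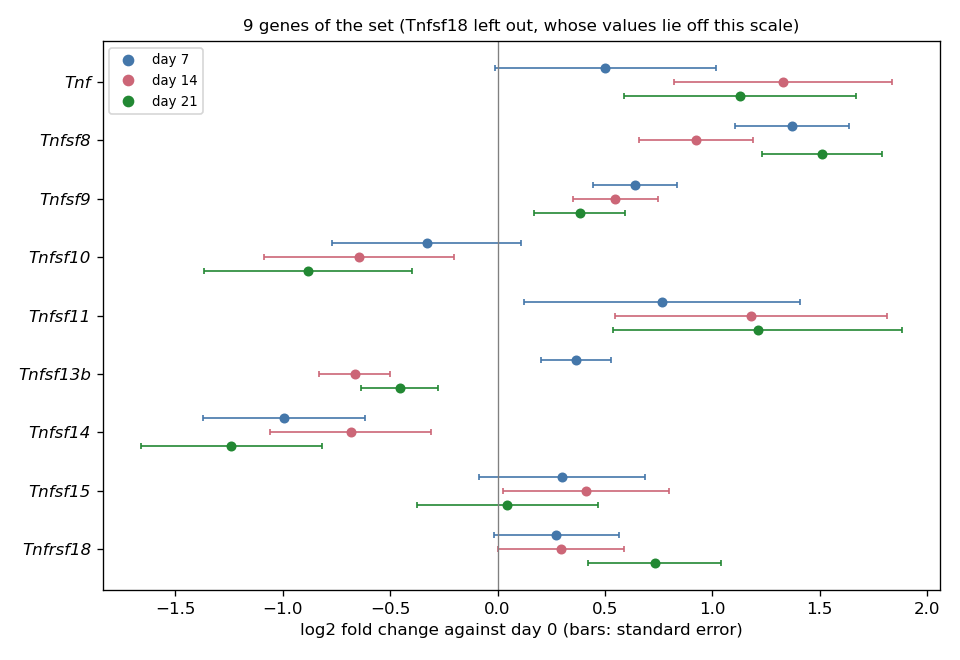
Log2 fold change against day 0 (horizontal axis, bars show the standard error) for 9 of the genes at days 7, 14 and 21, without Tnfsf18. Tnfsf8 lies to the right of 0 on all 3 days, from 0.92 to 1.51, Tnfsf14 to the left, and Tnfsf13b crosses from 0.36 at day 7 to -0.67 at day 14.

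The remaining ligands of the superfamily were tested as a list. Of 9 further ligand genes, 7 had enough counts, and none of them was called higher on any day. At day 7, Tnfsf13 (APRIL, a relative of BAFF) and Eda (ectodysplasin) fell, by 1.17 ± 0.34 (edgeR adjusted p = 0.0195) and 0.89 ± 0.30 (edgeR adjusted p = 0.040) on the log2 scale. At day 14 the fallen ligands were Tnfsf13, Eda and Fasl, the death ligand next to Tnfsf18. At day 21 Tnfsf12 and Cd40lg, which activates B cells through Cd40, were called as well, which made 5 of 7. Over all genes, 7.36%, 11.2% and 10.1% were called lower at days 7, 14 and 21. Tnfsf12 lies outside the rule for named genes and was added after its values were seen.

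Fasl lies next to Tnfsf18 on chromosome 1. It was 1.38 ± 0.542 CPM (n = 4) at day 0, 0.828 ± 0.407 (n = 4) at day 7, 0.429 ± 0.426 (n = 4) at day 14 and 0.319 ± 0.134 (n = 3) at day 21, a fall of 1.67 ± 0.62 at day 14 (edgeR adjusted p = 0.0481) and 2.09 ± 0.72 at day 21 (edgeR adjusted p = 0.0356). These calls were lost in 9 of 14 and 6 of 12 alternatives. The other neighbour, Tnfsf4, was too scarce to test, with at most 1 read in any day 0 library and at most 11 in any later library. NK cell markers (Ncr1, Klrb1c, Eomes and Prf1), none at 0, summed to 8.15 to 30.2 CPM at day 0, 1.83 to 6.41 at day 14 and 1.88 to 5.29 at day 21, and 4 of 4 were called lower on both days. Their part in the Fasl values was not tested. Lta and Ltb, which flank Tnf, were not called by the edgeR fit on any day, though Ltb was called lower at day 21 in 4 of 13 alternatives. Ltb was 16.3 ± 6.64 CPM at day 0 and 7.77 ± 4.54 at day 21.

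The number of ligands called depended on single libraries. When libraries were left out in turn, between 0 and 3 of the 7 were called at day 7, 1 or 2 at day 14 and 1 to 4 at day 21, and a fit that included the mitochondrial share called none at day 7. At day 7 the count was 0 without day 7 replicate 2 and 1 without any of day 0 replicates 1, 3 and 4 or day 7 replicates 1, 3 and 4. At day 14 it was 1 without any of day 0 replicates 1, 3 and 4 or day 14 replicates 1 and 2. At day 21, leaving out replicate 1 of that day gave 1, its replicate 2 gave 2, and day 0 replicate 1, 3 or 4 gave 3. By gene, the call of Eda at day 7 was lost in 10 of 15 alternatives and that of Tnfsf13 at day 14 in 8 of 15. Tnfsf13 kept its call in 13 of 15 at day 7 and 11 of 13 at day 21. Cd40lg kept its day 21 call in the 10 of 13 alternatives whose filter left it in. It held 3, 1 and 3 reads at day 21, against 8, 10, 8 and 13 at day 0. Eda at day 14 kept its call in all 15 alternatives, with a fall of 1.64 ± 0.31 (edgeR adjusted p = 0.000905). Tnfsf12 and Tnfsf13 share 48.3% and 60% of their exon bases with other genes, the readthrough gene Tnfsfm13 among them, so their counts carry that uncertainty.

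Many receptors of the superfamily rose. Of 26 tested receptor genes, 10 rose and 1 fell at day 7, 12 rose and 1 fell at day 14, and 12 rose and 1 fell at day 21. The shares of all genes called higher on these days, given above, were 8.78%, 12% and 12.4%. Their median log2 difference was 0.44, 0.58 and 0.66 on the 3 days. At day 7 the rises numbered 7 when the mitochondrial share entered the fit and 7 without day 7 replicate 1, with no fall in either.

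Tnfrsf9 (4-1BB, the receptor of Tnfsf9) rose most. It was 1.49, 1.75, 0.698 and 1.28 CPM at day 0, 10.7, 5.14, 8.79 and 4.99 CPM at day 7, 14.7, 12.8, 7.50 and 9.66 CPM at day 14, and 19.1, 6.72 and 12.4 CPM at day 21. No later library overlapped the controls. The log2 rise was 2.5 ± 0.38 (edgeR adjusted p = 0.000428), 3.09 ± 0.39 (3.34e-05) and 3.27 ± 0.40 (3.8e-05). Tnfrsf8, the receptor of Tnfsf8, was at 3 to 8 reads per day 0 library and rose by 1.58 ± 0.50 at day 14 (edgeR adjusted p = 0.0227) and 1.70 ± 0.53 at day 21 (edgeR adjusted p = 0.022), though 5 of 14 and 4 of 12 alternatives did not keep these calls. Tnfrsf4 (OX40), which lies beside Tnfrsf18, rose by 1.17 ± 0.39 at day 7 (edgeR adjusted p = 0.0366), 1.82 ± 0.39 at day 14 (0.0021) and 2.08 ± 0.41 at day 21 (0.00134). Its day 7 call was lost in 5 of 15 alternatives.

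The receptor of Tnfsf11 and its decoy rose. The receptor Tnfrsf11a (RANK) went from 7.62 ± 1.79 CPM at day 0 to 14.2 ± 2.40, 18.1 ± 8.15 and 19.1 ± 2.33 CPM. Tnfrsf11b (osteoprotegerin), a secreted decoy that binds RANKL and TRAIL, went from 3.18 ± 1.02 CPM to 6.46 ± 2.24, 12.6 ± 3.61 and 16.4 ± 8.01 CPM. Its log2 rise was 1.02 ± 0.35 at day 7 (edgeR adjusted p = 0.0442), 1.98 ± 0.35 at day 14 (0.000589) and 2.36 ± 0.37 at day 21 (0.00027). Day 21 was also above day 7, by 1.34 ± 0.36 (edgeR adjusted p = 0.0253). At day 7 the calls of Tnfrsf11a and Tnfrsf11b were lost in 4 and 8 of 15 alternatives.

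Receptors of Tnf and TRAIL were also among the called genes. Tnfrsf1b, the inducible Tnf receptor, went from 63.3 ± 8.48 CPM to 110 ± 14.1, 131 ± 12.1 and 122 ± 42.7 CPM and was called on each day, with the call lost in 1 of 15 alternatives at day 7 and 1 of 13 at day 21. Tnfrsf1a, the widely expressed Tnf receptor, had an adjusted p under the threshold but a difference of 0.36 to 0.57, below the fold change required. Tnfrsf10b, the mouse receptor of TRAIL with a death domain, rose by 1.33 ± 0.22 at day 7 (edgeR adjusted p = 0.000836), 1.56 ± 0.22 at day 14 (0.000107) and 1.27 ± 0.24 at day 21 (0.000978). Tnfrsf23, a decoy receptor of TRAIL, rose by 1.51 ± 0.27, 2.23 ± 0.27 and 1.98 ± 0.28 on these days, each with an adjusted p of 0.00116 or lower. Ltbr, which binds LIGHT and lymphotoxin, rose by 0.69 ± 0.12 at day 14 (edgeR adjusted p = 0.000579) and 0.72 ± 0.13 at day 21 (0.000779), with the day 14 call lost in 2 of 15 alternatives, while Tnfrsf14, the other LIGHT receptor, was not called.

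**Figure D3:**
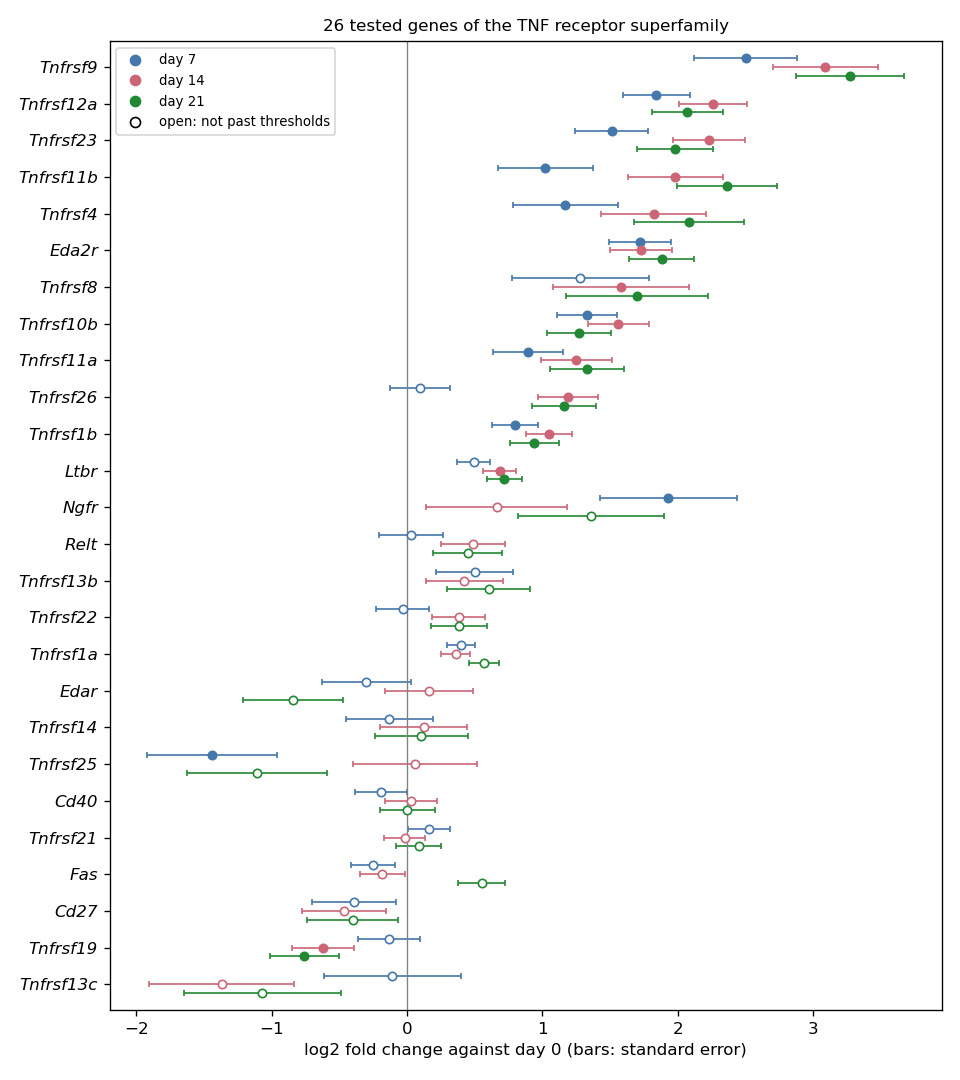
Log2 fold change against day 0 (horizontal axis, bars show the standard error) for the 26 tested receptor genes at days 7, 14 and 21, ordered by day 14, with filled points past both thresholds. Tnfrsf9 has the largest value on all 3 days, and filled points left of 0 belong to Tnfrsf25 and Tnfrsf19.

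Tnfrsf12a (Fn14, the receptor of Tnfsf12) rose from 34.7 ± 4.90 CPM to 125 ± 44.0, 166 ± 56.4 and 146 ± 16.4 CPM, or by 1.84 ± 0.25, 2.26 ± 0.25 and 2.07 ± 0.26 on the log2 scale, with an edgeR adjusted p of 0.000157 or lower. Eda2r, a receptor of an Eda isoform, rose by 1.72 ± 0.23, 1.73 ± 0.23 and 1.88 ± 0.24. Of their ligands, Tnfsf12 was called lower at day 21 alone, and Eda on each day, with its day 21 call lost in 4 of 13 alternatives. Ngfr, the low-affinity neurotrophin receptor, was called at day 7 with a rise of 1.93 ± 0.50 (edgeR adjusted p = 0.012), a call lost in 1 of 15 alternatives.

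The edgeR fit called no receptor of Tnfsf13b against day 0. Tnfrsf13c (the BAFF receptor of B cells) was 3.17 ± 1.10 CPM at day 0 and 1.21 ± 0.652 CPM at day 14, a log2 difference of -1.37 ± 0.54 that missed the threshold (edgeR adjusted p = 0.0595) and was called in 2 of 15 alternatives. Tnfrsf13b (TACI) differed from day 0 by 0.42 to 0.60 and was not called, and Tnfrsf17 (BCMA) was too scarce to test, at 13 reads or fewer per library. Tnfrsf19, an orphan receptor of epithelia, fell by 0.62 ± 0.23 at day 14 (edgeR adjusted p = 0.0486) and 0.76 ± 0.25 at day 21 (0.0328), calls that were lost in 7 of 15 and 3 of 13 alternatives.

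Tnfrsf25 (DR3), the receptor of Tnfsf15, fell at day 7 by 1.44 ± 0.48 (edgeR adjusted p = 0.0377), a call lost in 7 of 15 alternatives. Its day 0 values were 6.47 and 5.87 CPM in the libraries of lower mitochondrial share and 21.6 and 15.3 CPM in those of higher share. All 4 day 7 libraries, at 5.38, 2.51, 5.99 and 4.22 CPM, were of lower share. Within the libraries of lower share the log2 difference was -0.46 and was not called, and in a fit that included the share it was -0.20. Day 0 thus held libraries of both kinds and day 7 only of lower share. The part of this share in the Tnfrsf25 values was not tested beyond these fits.

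Downstream of the receptors, all 30 adaptors, NF-kB subunits and inhibitors were tested. At day 7, 5 rose and 1 fell, at day 14, 4 rose and 2 fell, and at day 21, 4 rose and 1 fell, with a median log2 difference of 0.11 to 0.18. Over all genes, 8.78%, 12% and 12.4% were called higher and 7.36%, 11.2% and 10.1% lower on these days. Relb, the NF-kB subunit of the non-canonical route, rose from 19.5 ± 2.87 CPM to 33.5 ± 3.84, 31.4 ± 2.22 and 36.7 ± 1.65 CPM, by 0.78 ± 0.12, 0.69 ± 0.12 and 0.92 ± 0.13 on the log2 scale (edgeR adjusted p of 0.000446 or lower). Nfkb2, its partner, was called at day 7, with 0.71 ± 0.14 (edgeR adjusted p = 0.00276), and was just short of the required fold at day 14, with 0.56 ± 0.14 (edgeR adjusted p = 0.00706). Nfkbie, an inhibitor of NF-kB, rose by 0.997 ± 0.197, 0.99 ± 0.20 and 0.94 ± 0.21, while Nfkbia, the best known of these inhibitors, fell by 0.69 ± 0.18 at day 14 (edgeR adjusted p = 0.00949). Ripk3, the kinase of necroptosis, rose at days 14 and 21, by 0.89 ± 0.18 and 0.78 ± 0.19. The day 14 calls of Nfkbia and Ripk3 were each lost in 1 of 15 alternatives.

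Traf1, an adaptor induced by NF-kB in lymphocytes, fell. It was 85.7 ± 8.85 CPM (n = 4) at day 0, 40.0 ± 8.76 (n = 4) at day 7, 36.8 ± 21.5 (n = 4) at day 14 and 23.4 ± 8.24 (n = 3) at day 21, and no later library reached the lowest control of 77.5 CPM. The fall was 1.10 ± 0.35 at day 7 (edgeR adjusted p = 0.0302), 1.22 ± 0.35 at day 14 (0.0138) and 1.87 ± 0.39 at day 21 (0.00234). The day 7 call was lost in 7 of 15 alternatives and the day 14 call in 1.

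**Figure D4:**
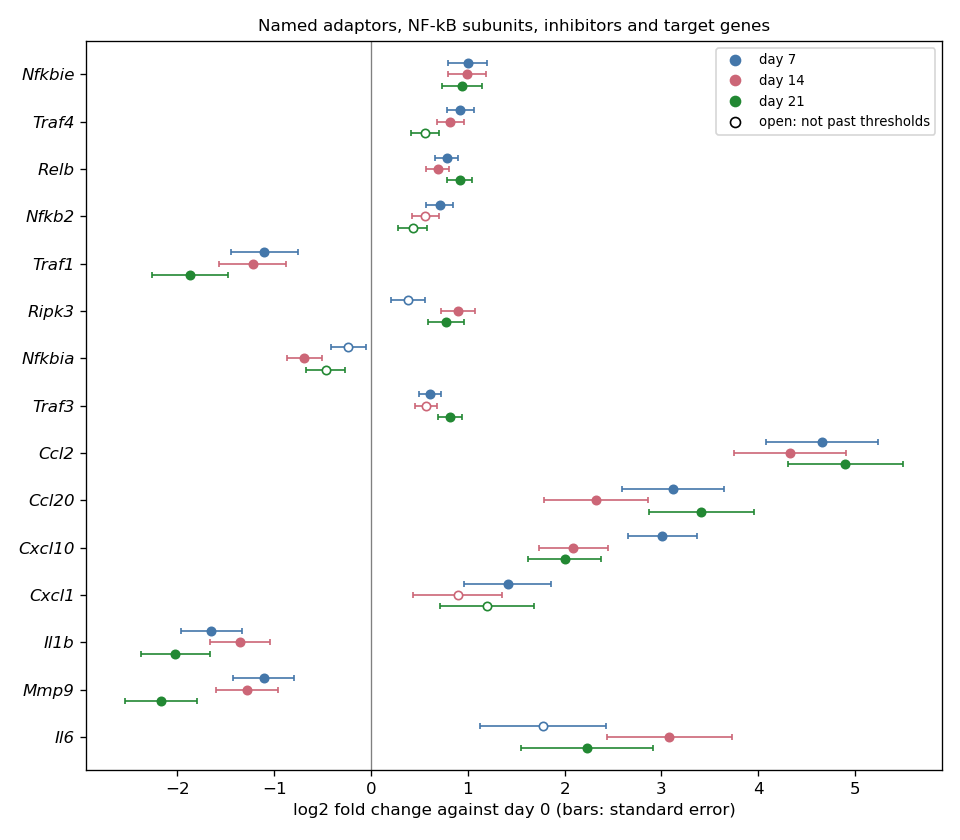
Log2 fold change against day 0 (horizontal axis, bars show the standard error) for the named adaptors, NF-kB subunits, inhibitors and target genes at days 7, 14 and 21, with filled points past both thresholds. Ccl2 is farthest right on all 3 days, from 4.33 to 4.90, and Traf1, Il1b and Mmp9 are filled on the left on all 3.

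Of the 19 tested genes listed as NF-kB targets, 7 rose and 2 fell at day 7, 8 rose and 2 fell at day 14, and 6 rose and 2 fell at day 21. The shares of all genes were the same as those given for the adaptors. The chemokine Ccl2, which recruits monocytes, rose from 0.615 ± 0.233 CPM to 15.9 ± 9.50, 12.7 ± 5.82 and 18.8 ± 11.8 CPM, by 4.66 ± 0.58, 4.33 ± 0.58 and 4.90 ± 0.60 on the log2 scale (edgeR adjusted p of 8.48e-05 or lower). Ccl20 rose by 3.12 ± 0.52, 2.32 ± 0.54 and 3.41 ± 0.54, and Cxcl10, an interferon-induced chemokine, by 3.01 ± 0.36, 2.09 ± 0.36 and 2.00 ± 0.37. The day 21 libraries held 3.90, 4.16 and 13.3 CPM of Cxcl10. Its rise on that day ran from 1.14 to 2.26 over 13 alternatives, all of which kept the call. The cytokine Il6 rose by 3.08 ± 0.65 at day 14 (edgeR adjusted p = 0.00198) and 2.23 ± 0.68 at day 21 (0.0208), and Cxcl1 was called at day 7, with 1.41 ± 0.45. Il6 lost its day 21 call in 4 of 13 alternatives and gained one at day 7 in 6 of 15, and Cxcl1 lost its call in 5 of 15. Over the alternatives the Il6 rise ran from 2.56 to 4.2 at day 14 and from 1.83 to 3.35 at day 21. The day 0 libraries held 4, 1, 6 and 24 reads of Il6. The genes that fell were Il1b, by 1.65 ± 0.31, 1.35 ± 0.31 and 2.02 ± 0.35, and the protease gene Mmp9, by 1.11 ± 0.32, 1.28 ± 0.32 and 2.17 ± 0.37. Mmp9 lost its call in 3 of 15 alternatives at day 7 and 1 of 15 at day 14, and Il1b in 1 of 15 at day 14. Both are also expressed in neutrophils, whose markers were given beside Tnfsf14 and fell for 3 of 4 genes at days 7 and 21 and 1 of 4 at day 14. The part of those cells in the Il1b and Mmp9 values was not tested.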

How the data were processed

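RNA in 15 libraries of mouse lung, taken at 4 time points, was measured as 1 table of raw gene counts. Per the study's methods and the submitters' processing notes, the authors trimmed paired reads, aligned them to mm10 with HISAT2 2.1.0, left out reads with several alignments and counted the rest per gene with HTSeq 0.6.0, which gave the deposited counts. The annotation release and strand setting are not given in the sources used here. Leaving out such reads lowers counts of genes with near-identical copies.

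Groups followed the sample titles. Gene symbols and coordinates came from GENCODE M21, which matched 33267 of 33340 genes. Counts without a symbol made up 0.00889% of the total. The quasi-likelihood test of edgeR 4.0.16 (R 4.3.3) was fitted over all 15 libraries with day as the factor, after filterByExpr and TMM scaling, on 17457 genes. Calls required a fold change above 1.5 and, after Benjamini-Hochberg adjustment over all genes tested, p below 0.05. Errors of log2 differences are standard errors. A prior count of 2 was added for log2 CPM only, and the fit kept the default prior count of edgeR. The members and lists were chosen with earlier results of these data known. Named genes were the members, their receptors, Lta and Ltb, and in each list up to 4 called genes with the largest rise and up to 3 with the largest fall per day. Likeness was Pearson r of log2 CPM, for genes among the 5 closest to Tnfsf18 and the closest of each other member. Marker lists covered T, regulatory T, NK and dendritic cells, macrophages, neutrophils, endothelium, fibroblasts, alveolar type 1 and 2 cells, airway epithelium, cardiac muscle and fat. Alternatives were DESeq2 1.42.0, RLE scaling, other low-count filters, the replicate number as a block, the mitochondrial share as a term and leaving out each library. Fits within libraries of like mitochondrial share were added after seeing the data. A gene close to Tnfsf18 and a marker list are not reported here. The edgeR script was tested on simulated data.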

Additional observations from a re-analysis of the deposited data

How the results depend on the processing

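None of the named genes' calls that were refitted changed direction. Of the 9 further ligands, the day 7 count of 2 was 1 with no filter on low counts, 0 with the mitochondrial share in the fit and 1 within libraries of lower share. Their day 14 count of 3 was 1 within libraries of higher share, and their day 21 count of 5 was 3 with the replicate block. It was also 3 at a mean of at least 1 CPM, a filter that left out Fasl and Cd40lg. The day 7 count of 11 changed receptors was 7 with the mitochondrial share in the fit, and the day 14 count of 3 members was 1 within libraries of higher share. Leaving out single libraries gave 0 to 3 further ligands at day 7, 1 to 2 at day 14 and 1 to 4 at day 21, 7 to 10 receptors at day 7, and 2 to 5 members at day 14. The cause of the changes other than that of the 1 CPM filter was not tested. Same-numbered libraries correlated with r of -0.244 to 0.397 over 21 pairs, 8 of them over 0.1, and 7 of 15 libraries were closest to their own number, so the numbers were not taken to pair the samples. The replicate block left every other count within 1.5 times. RLE scaling and DESeq2 moved the median of all genes by -0.0275 to -0.015 on the log2 scale. Depth limits Tnfsf18 at day 0, Tnfsf4, Cd70 and Tnfrsf17, which held few or no reads.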

Other observations

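Other marker lists gave the following calls against day 0. Fibroblast markers were called higher for 3 of 5 genes on each later day, and their summed level was 995 to 1460 CPM at day 0 and 3100 to 3970 CPM at day 7. Alveolar type 2 markers were called lower for 0, 3 and 5 of 5 genes at days 7, 14 and 21, and their sum went from 25500 to 35500 CPM at day 0 to 4220 to 8890 CPM at day 21. Endothelial markers were called lower for 1, 3 and 1 of 5 genes, and airway markers for 1, 3 and 1 of 3 tested. T cell markers were called lower for 2 of 6 genes at day 14 and for none at the other days, and 1 of 4 regulatory T cell and 1 of 4 dendritic cell markers were called higher at day 7. Alveolar type 1 markers had 1 of 4 genes higher on each day and 1 lower at days 7 and 21. Cardiac muscle markers had 1 of 4 tested genes lower at day 14. Their sums differed widely within days, at 665 CPM in day 21 replicate 1 against 11.8 and 20.2 in the others, 558 in day 7 replicate 4 against 24.1 to 49.6, and 224 and 163 in day 0 replicates 3 and 4 against 18.2 and 37.4. Day 21 replicate 1 was also the library high in Tnfsf11, and the part of heart tissue in that value was not tested. Fat markers had 3 of 4 genes lower at day 14 and 2 of 4 at day 21.

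The genes closest to the other members over the 15 libraries were Sdsl for Tnf (Pearson r 0.873), Gpr85 for Tnfsf8 (0.937), Timm50 for Tnfsf9 (0.888), Gm15663 for Tnfsf10 (0.955), Slc25a35 for Tnfsf13b (0.937), Asprv1 for Tnfsf14 (0.868), Gpkow for Tnfsf15 (0.808) and Apol7a for Tnfrsf18 (0.812). Tnfsf18 and its receptor Tnfrsf18 had r of 0.493. The points share day and library, so these are descriptions.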
